A study of Vitis rotundifolia with 12 samples.

Results

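The weakly attached muscadine genotype Ga. 12-3-22 (W) was followed from the pea-size stage (Stage 1) to maturity (Stage 4) in its pedicels, the stalks that carry single berries. The comparison holds the 6 libraries whose labels give this genotype, 3 for each stage, of 12 libraries in the series. The other 6 come from the strongly attached genotype Ga. 6-1-269 (S) and are used only to place the W results. Muscadine (Vitis rotundifolia) plants of both genotypes grew in the same field planting, and the pedicels were frozen in liquid nitrogen with no other treatment. The W groups thus differ in developmental stage alone by their labels. A separate label gives the tissue type as mature for all libraries, those of the pea-size stage included. The groups used here follow the label for developmental stage. The study picked the genotype for its low fruit detachment force at maturity, the force that pulls a berry off its pedicel, so weak attachment is represented by a single genotype. The question is which transcripts change while W fruit come to detach easily.

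Fruit of muscadine is shed at an abscission zone, a layer of small cells between pedicel and berry. In plants in general, such a layer first forms, then responds to hormones, with ethylene and abscisic acid favouring separation and auxin opposing it, and finally separates when enzymes digest the wall material between its cells. Pedicels also hold vascular bundles, cortex and epidermis, so RNA of the whole stalk mixes the abscission zone with tissue that does not separate. In such bulk RNA, fewer cells of a type and less RNA per cell cannot be told apart. The files name 26394 gene models by chromosome and number in the 'Noble' annotation, and 0 of these identifiers occur in the reference table of muscadine genes used here. No gene model could therefore be given a gene name, a function or a sequence, and the pedicel identity of the libraries could not be checked with marker genes. Gene models are described below by level, size of change, chromosome and behaviour across libraries, and 4 are given by identifier.

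The W libraries held 4705119 to 15404644 reads counted on gene models, with a median of 7290714. At least 1 read was counted for 20753 gene models, and 11623 had at least 10 counts in each of the 6. The lowest chi-square per degree of freedom between any pair of W libraries was 11.6, so no library was a repeat of another. Between 16.1% and 17.6% of reads fell on no gene model in pea-size replicates 1 and 2 and mature replicate 1, and between 10.6% and 12.5% in the other 3 libraries. The same 3 libraries had the highest level of the most abundant gene model, which lies on chromosome 2. It stood at 22900 and 33100 CPM (counts scaled to library size with edgeR's TMM factors) in pea-size replicates 1 and 2 and at 33900 in mature replicate 1, but at 2120 in pea-size replicate 3 and at 6380 and 4150 in mature replicates 2 and 3. The stages overlapped, and the log2 fold change (log2FC) was -0.39 with a standard error of 1.34 (edgeR adjusted p = 0.993). Whether the quality of the RNA has a part in these values was not tested.

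Replicates of one stage differed from each other about as much as the stages did. Over the 11623 well-counted gene models, the SD of the difference in log2 CPM between a pair of libraries ranged from 0.84 to 1.014 within the pea-size stage. Between stages it ranged from 0.871 to 1.049 over 9 pairs. Mature replicates 2 and 3 were the one close pair, with an SD of 0.504 and 5.88% of gene models apart by 2-fold or more. Mature replicate 1 differed from them by 0.88 and 0.892, and 21.7% and 22.3% of gene models were apart by 2-fold or more. Pea-size replicate 3 was nearer to mature replicates 2 and 3 (0.871 and 0.897) than to pea-size replicates 1 and 2 (0.946 and 1.014). It thus stood apart from the other libraries of its label, as mature replicate 1 did, and the counts of calls below are also given without these libraries.

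**Figure D1:**
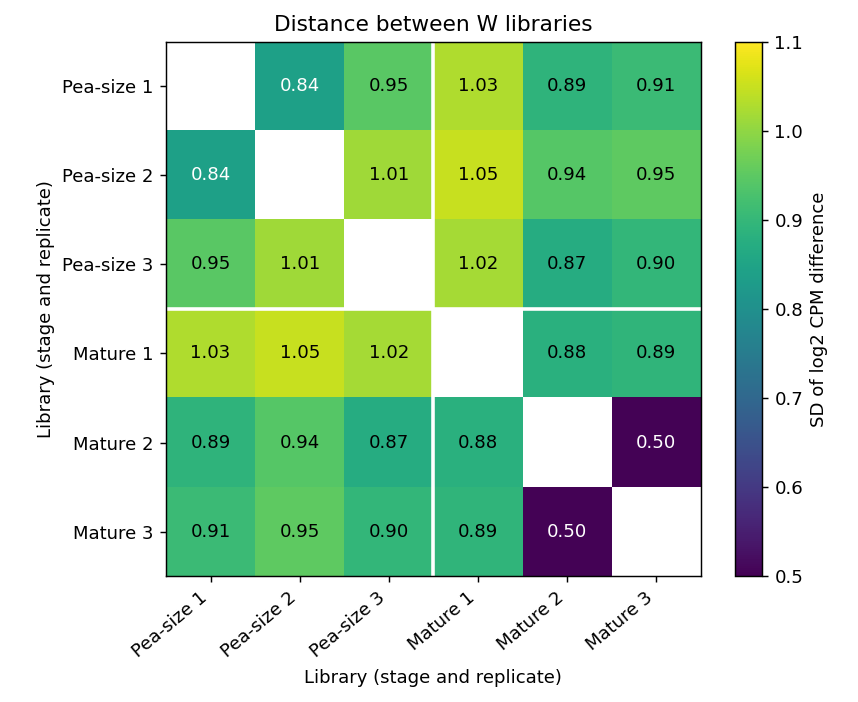
Distance between each pair of the 6 W libraries, as the SD of the difference in log2 CPM over 11623 gene models with at least 10 counts in every library. Rows and columns are libraries in the same order and white lines divide the stages. Mature replicates 2 and 3 were closest (0.504), and pairs of pea-size libraries (0.84 to 1.014) were about as far apart as pairs across stages (0.871 to 1.049).

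Mature replicate 1 and pea-size replicate 2 also lacked gene models that the others had. At 0 counts in mature replicate 1 alone stood 182 gene models that reached at least 2 CPM in each of the other 5 W libraries, where 0 counts allows up to 0.658 CPM in that library. Their mean level in the other 5 had a median of 6.37 CPM and reached 58 CPM. For pea-size replicate 2 the number was 92, with a limit of 0.456 CPM, and for the remaining 4 libraries it was 0 to 15. The order held at equal depth. Thinned by calculation to the 4705119 counts of the shallowest library, mature replicate 1 and pea-size replicate 2 would show 15161 and 15940 gene models with a count. The other 4 would show 17384 to 18753. In the stage test described next, edgeR called none of the 182 and none of the 92, with 9 and 2 of them at an unadjusted p of at most 0.05, and DESeq2 called 2 and 1. Among all 5932 tested gene models at a mean level of 1 to 10 CPM, edgeR called 0.0337% up and 0.0843% down, and 4.92% had such an unadjusted p. The lack of calls is thus not read as a result about these gene models.

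Maturity was compared with the pea-size stage by edgeR's quasi-likelihood test on the 6 libraries. A call required a Benjamini-Hochberg adjusted p no larger than 0.05 together with a change of 2-fold or more in either direction, that is a log2FC of 1 or of -1. Of 18439 gene models tested, 81 were upregulated at maturity (0.439%) and 92 were downregulated (0.499%). The fitted changes were centred near 0, with a median log2FC of -0.04, quartiles of -0.58 and 0.41, and 5% of values each below -2.42 and above 1.69. A change of 2-fold or more was thus fitted for 4894 gene models (26.5%), most of which did not exceed the spread between replicates. At an unadjusted p of at most 0.05, 764 gene models had a positive and 970 a negative log2FC. Stages did not overlap for 1324 gene models with the mature libraries on top (7.18%) and for 1422 with the pea-size libraries on top (7.71%). The first count became 1967, 1973 and 2700 without pea-size replicates 1, 2 and 3, and 2701, 1846 and 1822 without mature replicates 1, 2 and 3. The second became 2336, 2515 and 2798, and 2332, 2161 and 2039, in the same order. Fewer libraries separate more easily, so a rise alone is not read as a result. Why the rises differed between the libraries left out was not tested.

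**Figure D2:**
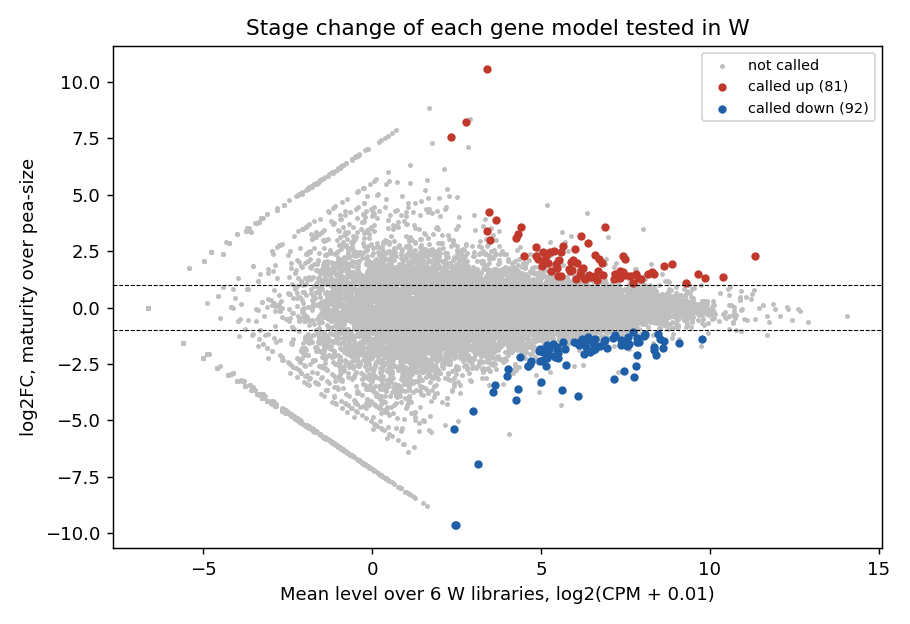
Stage change of the 18439 gene models tested in W. The x axis is the mean level over the 6 libraries as log2(CPM + 0.01), the y axis is edgeR's log2FC of maturity over pea-size, dashed lines mark a log2FC of 1 in either direction, and colours mark the 81 gene models called up and the 92 called down. Called gene models lie mostly at mean levels of 10 CPM and above, and the slanted outer lines are gene models at 0 counts in a whole stage.

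Calls were concentrated among well-expressed gene models. A mean level of at least 10 CPM over the 6 libraries was found for 166 of the 173 called gene models (96%) and for 10407 of all tested (56.4%). Among the 2334 tested gene models at 100 CPM and over, 30 were called up (1.29%) and 34 down (1.46%). Among 5932 at 1 to 10 CPM, 2 were called up (0.0337%) and 5 down (0.0843%), and none of 2100 under 1 CPM was called in either direction. The lowest class includes gene models with 0 counts in every W library, kept by a filter over all 12 libraries. These could not be called. At an unadjusted p of at most 0.05, 102 of these 2100 passed (4.86%), beside 4.92% at 1 to 10 CPM, 11.8% at 10 to 100 CPM and 16.5% at 100 CPM and over. DESeq2 called 0 of the 2100. It gave no adjusted p for 1629 of all tested gene models, which could not be called, so this 0 is not read as agreement. The precision follows the level, with a median standard error of the log2FC of 0.27 at 100 CPM and over, 0.43 at 10 to 100 CPM, 1.32 at 1 to 10 CPM and 2.31 under 1 CPM. For gene models at low levels a change of 2-fold was thus within the error of these libraries.

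The 81 upregulated gene models rose from a median pea-size level of 28.2 CPM to a median mature level of 109 CPM. Their mature levels ran from 10 to 4310 CPM, and their mean counts per library from 35.3 to 23000. The size of the rise had a median log2FC of 1.92, with 45 gene models between 1 and 2, 24 between 2 and 3, 9 between 3 and 5, and 3 above 5. Together they took 6424 ± 662 CPM at the pea-size stage and 20935 ± 1278 CPM at maturity (SD, n = 3 each), 3.26 times as much. By library the sum was 5944, 7180 and 6149 CPM at the pea-size stage and 19485, 21420 and 21900 CPM at maturity. One gene model on chromosome 1 made up 18.9% of their mean level, and without it the ratio was 2.99. These sums describe gene models chosen on the same libraries and are no test. The lowest mature value and the highest pea-size value of a gene model were a median of 1.18 apart on the log2(CPM + 1) scale, and at least 1 apart for 53 of the 81.

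The upregulated gene model with the smallest adjusted p among those with more than 3 counts at each stage and a mean of at least 50 counts was evm.model.chr9.31 on chromosome 9. It had 15.2, 12.3 and 15.3 CPM in the pea-size libraries and 108, 131 and 151 CPM in the mature libraries. The stages were far apart and the pea-size replicates close together, at 14.3 ± 1.67 against 130 ± 21.7 CPM (SD, n = 3 each). This is a rise of 9.1 times, or 3.19 on the log2 scale, with a standard error of 0.32 (edgeR adjusted p = 4.84e-05). The upregulated gene model with the highest level was evm.model.chr1.322 on chromosome 1, the one that led the sum. Its pea-size values were 616, 1100 and 890 CPM and its mature values 3450, 4620 and 4870 CPM, and mature replicate 1 was the lowest of the mature libraries. Stage means were 869 ± 243 and 4310 ± 756 CPM (SD, n = 3 each). The log2FC of 2.31 had a standard error of 0.28 (edgeR adjusted p = 0.000301). Both kept their call under each of 15 alternative settings, with a log2FC of 3.06 to 3.35 and an adjusted p of at most 0.00636 for the first. For the second the log2FC was 2.13 to 2.52 and the adjusted p at most 0.0219.

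Other strong rises can be given by chromosome. A gene model on chromosome 17 moved from 216, 217 and 142 CPM to 745, 739 and 736 CPM, the tightest mature group among the 10 most abundant that rose (log2FC 1.95, standard error 0.26, edgeR adjusted p = 0.000765). One on chromosome 12 had 10.5, 30.6 and 14.9 CPM and then 273, 205 and 182 CPM, and mature replicate 1 was the highest library here (log2FC 3.56, edgeR adjusted p = 0.000192). One on chromosome 6 moved from 20.6, 23.6 and 25.8 CPM to 93.2, 91.4 and 99.3 CPM (log2FC 2.02, edgeR adjusted p = 0.00379). Replicates of this gene model differed little at either stage. The next most abundant after the leading gene model were on chromosomes 11 and 2, with pea-size means of 757 ± 132 and 540 ± 174 CPM and mature means of 1940 ± 130 and 1320 ± 164 CPM (SD, n = 3 each). Their log2FC values were 1.36 and 1.29 (edgeR adjusted p = 0.0102 and 0.0221).

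At the pea-size stage, 3 upregulated gene models were all but uncounted. Besides the one on chromosome 4 that went from 0 to 520 counts in all (21.3 ± 2.97 CPM at maturity, SD, n = 3), one on chromosome 1 went from 1 to 328 counts and one on chromosome 7 from 1 to 211 counts. Their mature levels were 13.7 and 10 CPM. Their fitted log2FC values of 10.59, 8.25 and 7.56 depend on the prior count and are not read as sizes.

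The 92 downregulated gene models fell from a median pea-size level of 115 CPM to a median mature level of 34.7 CPM. The median size of the log2FC was 1.82, with 56 gene models between 1 and 2, 21 between 2 and 3, 11 between 3 and 5, and 4 above 5. Among the last, gene models on chromosomes 14 and 18 went from 233 and 243 counts to 0, and one on chromosome 6 from 434 to 3. Their fitted log2FC values of -9.65, -9.64 and -6.94 depend on the prior count and are not read as sizes. The one on chromosome 14 was much lower in pea-size replicate 3 than in pea-size replicates 1 and 2. Their sum was 17485, 16498 and 17226 CPM in the pea-size libraries and 5916, 5013 and 5201 CPM in the mature ones. This is 17070 ± 512 against 5377 ± 476 CPM (SD, n = 3 each), 3.17 times less at maturity, again a description of gene models chosen on these libraries. No single one dominated, since the most abundant made up 7.73% of their mean level. The lowest pea-size and the highest mature value were a median of 1.01 apart on the log2(CPM + 1) scale and at least 1 apart for 47 of the 92.

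**Figure D3:**
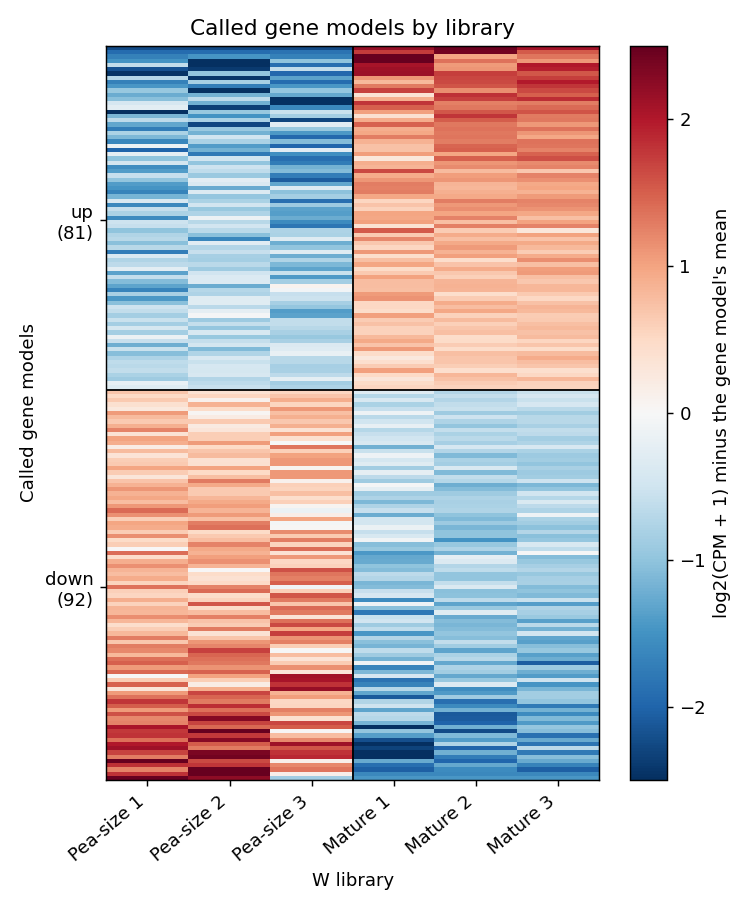
Level of the 173 called gene models in each W library, as log2(CPM + 1) minus the mean of the gene model over the 6 libraries. Rows are gene models, the 81 called up above the black line and the 92 called down below it, sorted by log2FC, and columns are libraries. The stages do not overlap in any of the 173 rows, which were chosen by their stage change, and mature replicate 1 is the mature library nearest to the pea-size stage in 42 of the 81 and 44 of the 92. Pea-size replicate 3 is the pea-size library nearest to maturity in 19 of the 81 and 40 of the 92. No such shares over all tested gene models are given.

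The downregulated gene model with the smallest adjusted p under the same limits was evm.model.chr17.1319 on chromosome 17. It had 312, 428 and 421 CPM at the pea-size stage and 58.6, 32.2 and 48.7 CPM at maturity. Mean levels were 387 ± 64.8 and 46.5 ± 13.3 CPM (SD, n = 3 each), or 8.34 times lower at maturity. The log2FC of -3.06 had a standard error of 0.30 (edgeR adjusted p = 4.84e-05). The call was lost only with all 12 libraries in 1 fit (adjusted p = 0.0829), among 15 settings with a log2FC of -3.24 to -2.85 and an adjusted p of 7.73e-20 to 0.0829. The highest level among those that fell was that of evm.model.chr10.612 on chromosome 10. Its pea-size values were 1550, 1180 and 1030 CPM and its mature values 542, 479 and 425 CPM. All mature libraries were thus low and close together, at 482 ± 58.6 CPM against 1250 ± 267 CPM (SD, n = 3 each). The log2FC was -1.38 (standard error 0.25, edgeR adjusted p = 0.0109). This call was less firm, because it was lost without mature replicate 2 (adjusted p = 0.0692), without mature replicate 3 (0.0962) and with all 12 libraries in 1 fit (0.572), within a range of 3.46e-05 to 0.572 over 15 settings.

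**Figure D4:**
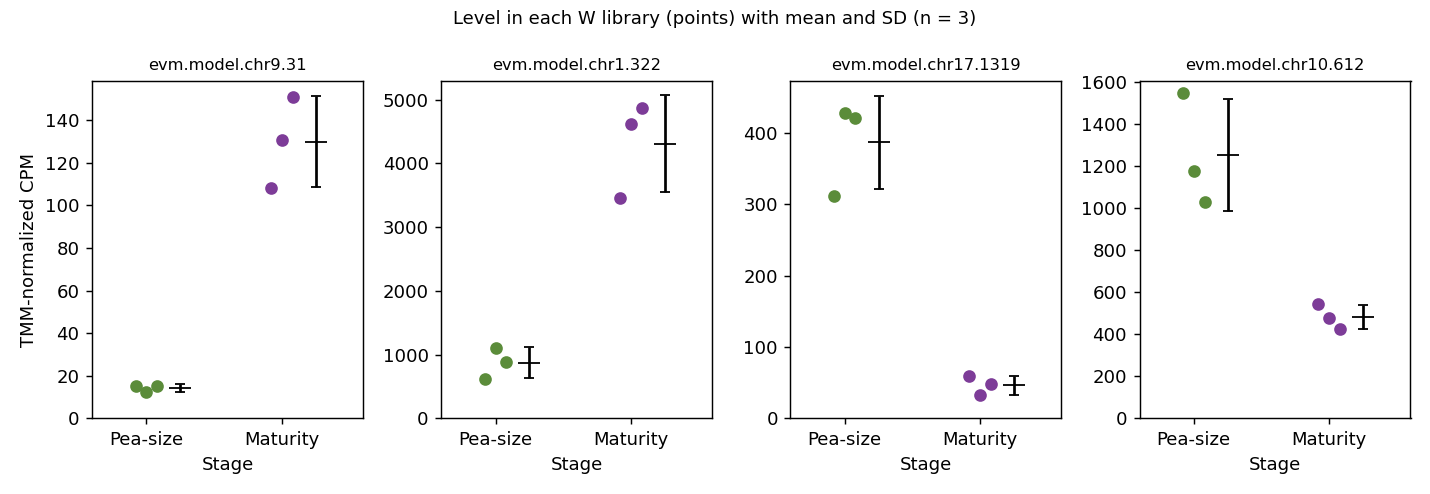
TMM-normalized CPM of the 4 gene models given by identifier, in each W library (points) with the mean and SD of each stage (black, n = 3). Each panel has its own linear y axis from 0 and the x axis gives the stage. The mature values of evm.model.chr9.31 (108 to 151 CPM) and evm.model.chr1.322 (3450 to 4870 CPM) lie above all pea-size values, and those of evm.model.chr17.1319 (32.2 to 58.6 CPM) and evm.model.chr10.612 (425 to 542 CPM) lie below them.

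On chromosome 10, 8 of 913 tested gene models were called down (0.876%), beside 0.499% of all tested. The chromosome held 4 of the 10 most abundant downregulated gene models, a count made after the values were seen and not read as a grouping. Besides the one named, they fell from 808 ± 280 to 276 ± 13.1 CPM, from 590 ± 131 to 214 ± 73 CPM and from 511 ± 172 to 139 ± 14.5 CPM (SD, n = 3 each). Their log2FC values were -1.55, -1.46 and -1.87 (edgeR adjusted p = 0.0103, 0.0145 and 0.00307). Steeper falls were found at lower levels. On chromosome 16, 2 gene models fell from 105, 165 and 113 CPM to 3.51, 13.1 and 8.56 CPM and from 29.1, 55.2 and 25.6 CPM to 1.54, 3.38 and 3.81 CPM. Their log2FC values were -3.90 and -3.61 (edgeR adjusted p = 0.000192 and 0.00379), and in both the pea-size libraries were high and the mature ones low without overlap. One on chromosome 12 fell from 328, 215 and 227 CPM to 10.5, 33.6 and 39.6 CPM (log2FC -3.18, edgeR adjusted p = 0.00428).

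Some gene models were counted at one stage only. At least 10 counts in each pea-size library and 0 in all mature libraries were found for 15 gene models, and the reverse for 2. With a minimum of 5 counts the numbers were 38 and 5, and with 20 counts 5 and 2. A minimum in counts is harder to meet at maturity, where replicate 1 had the fewest counts (4705119) and alone lacked 182 gene models, so the numbers for the stages are not read against each other. The 15 stood at mean pea-size levels of 1.99 to 11 CPM, and taking 3 counts as the most that 0 allows over the mature libraries (0.121 CPM), they were at least 15.2-fold to at least 68.6-fold lower at maturity. Only 1 of them was called down, a gene model on chromosome 18 with 67, 139 and 37 counts (edgeR adjusted p = 0.0145). The others had adjusted p-values of 0.067 to 0.346. Of the 2 counted at maturity only, the one on chromosome 4 was called, and one on chromosome 11 with 61, 29 and 25 counts was not (edgeR adjusted p = 0.0657). Counting limits here cover counting error only.

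Called gene models lay on all 20 chromosomes. Calls in both directions made up from 0.384% of the tested gene models on chromosome 5 to 1.53% on chromosome 19. Chromosome 19 had 9 called down and 3 called up of 785 tested, and chromosome 1 had 9 called up and 7 called down of 1114. On chromosome 9, 4 were called up and 0 down of 686 tested by edgeR, where 21 fell at an unadjusted p of at most 0.05 and DESeq2 called 4 down. If identifier numbers follow the order along a chromosome, 6 of the 173 (3.47%) had a called gene model with the next number, where 0.884% of all tested gene models had one. Within 2 numbers the count was 10 and within 5 numbers 18, and with the next tested gene model in place of the next number it was 16. The share over all tested gene models was not computed for these wider rules. Their counts are therefore not read as a grouping of calls. At 5 numbers, 6 had a neighbour called up like themselves and 8 one called down like themselves, so the others had one of the opposite call only. The 6 with the next number formed 3 pairs, each with the same call. The pair on chromosome 17 was evm.model.chr17.1319 with the gene model after it, which fell from 485 ± 34.5 to 219 ± 22.2 CPM (log2FC -1.15, edgeR adjusted p = 0.0237). A pair on chromosome 4 rose from 144 ± 21.5 to 349 ± 10.4 CPM and from 18.2 ± 11.4 to 111 ± 22.3 CPM (SD, n = 3 each). The pair on chromosome 1 held the gene model that went from 1 to 328 counts and a neighbour that rose from 28.2 ± 1.26 to 87.6 ± 22.9 CPM. Reads of overlapping or near-identical neighbours cannot be told apart here, since neither the coordinates nor the strand setting of the counting is given in the sources used here.

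The number of calls depended on single libraries. The 81 upregulated gene models became 246 without pea-size replicate 3, of which 79 were among the 81. They became 46, 48 and 50 without mature replicates 1, 2 and 3, and 58 and 65 without pea-size replicates 1 and 2. Of the original 81, 34, 44 and 48 were called again without mature replicates 1, 2 and 3, and 47 and 41 without pea-size replicates 1 and 2. The 92 downregulated became 262 without pea-size replicate 3, with 83 of the 92 among them. They became 53 and 56 without pea-size replicates 1 and 2, and 44, 37 and 41 without mature replicates 1, 2 and 3. Leaving out both pea-size replicate 3 and mature replicate 1, a setting chosen after the data were seen, gave 322 up and 402 down, with 72 of the 81 and 85 of the 92 among them. That setting sets the pea-size libraries with 16.9% and 17.6% of reads on no gene model against the mature ones with 12.5% and 12.1%, so stage and this difference between libraries cannot be told apart in it.

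**Figure D5:**
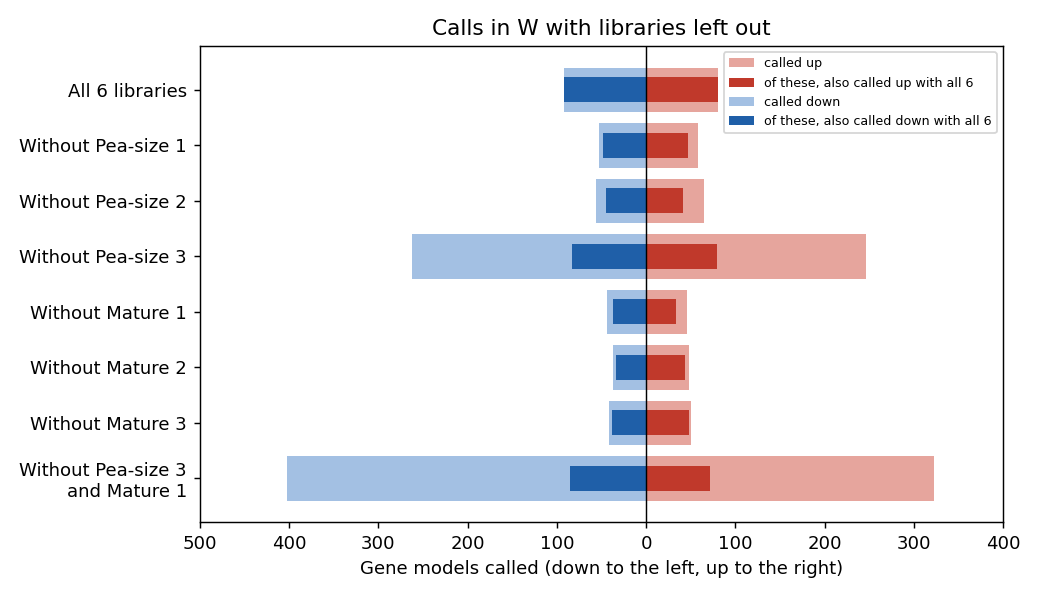
Number of gene models called down (left) and up (right) in W with all 6 libraries and with libraries left out. Pale bars are all calls and dark bars are those also called with all 6. Without pea-size replicate 3 the calls rose to 246 up and 262 down, and without any 1 mature library they dropped to between 46 and 50 up and between 37 and 44 down.

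A firmer set was called in the same direction with every single library left out in turn. It held 22 upregulated and 19 downregulated gene models. DESeq2's Wald test called these as it did all 81 and all 92, so it does not set them apart. At the other end, 2 of the 92 downregulated and 0 of the 81 upregulated were called in none of the fits with 1 library left out. The 22 lay on 14 chromosomes and had mean levels of 6.86 to 2590 CPM with a median log2FC of 2.22. They include evm.model.chr9.31, evm.model.chr1.322 and the gene models described above on chromosomes 17, 12 and 6, and the one on chromosome 4 with 0 pea-size counts, but neither of the neighbouring pair on chromosome 4. The 19 lay on 11 chromosomes and had mean levels of 19.3 to 394 CPM and a median log2FC of 2.24 in size. They include evm.model.chr17.1319 and both described on chromosome 16, but not evm.model.chr10.612. Also among the 19 were a gene model on chromosome 19 that fell from 552 ± 131 to 128 ± 13.8 CPM and another there that fell from 60.2 ± 1.68 to 12.7 ± 4.02 CPM (SD, n = 3 each). A gene model on chromosome 5 fell from 373 ± 74.6 to 88.4 ± 17.6 CPM and one on chromosome 1 from 305 ± 59.4 to 43.3 ± 23.1 CPM.

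The same gene models were then read in S, whose libraries entered only the filter on low counts when the calls were made. There, 33 of the 81 were called up and 8 down by the same rule, where 4.57% of all tested gene models were called up and 5.03% down. Their summed level in S was 7488, 6736 and 6808 CPM in the pea-size libraries and 19040, 29617 and 20610 CPM in the mature ones, without overlap. As means these are 7011 ± 415 and 23089 ± 5708 CPM (SD, n = 3 each). Of the mature mean, evm.model.chr1.322 alone made up 6320 CPM. Of the 92, 20 were called down in S and 3 up. Their sum in S was 13959, 14263 and 13067 CPM and then 8636, 7096 and 7188 CPM, or 13763 ± 622 and 7640 ± 864 CPM, also without overlap. The median log2FC in S was 1.06 for the 81 and -0.43 for the 92, beside 0.07 for all tested gene models. The change in S had the same sign as in W for 64 of the 81 and for 54 of the 92. The difference between the genotypes' stage changes was tested in all 12 libraries. Among the 81 it passed for 19, and among the 92 for 17, beside 2.29% of all tested gene models. Since the members were picked by their change in W, this is no independent evidence. The 36 became 23 without mature replicate 2 of W.

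Within the firmer set, 11 of the 22 upregulated gene models were called up in S by edgeR and 0 down, and 0 had an unadjusted p of at most 0.05 with a negative change. Of the 19 downregulated, 6 were called down in S and 1 up. The 4 gene models given by identifier had S values of their own. In S, evm.model.chr9.31 rose from 10.7 ± 4.94 to 82.1 ± 23.7 CPM (SD, n = 3 each; log2FC 2.94, edgeR adjusted p = 0.00791), with a log2 difference between genotypes of 0.30 (standard error 0.47, edgeR adjusted p = 0.854). evm.model.chr1.322 rose in S from 410 ± 61.5 to 6320 ± 2540 CPM (log2FC 3.95, edgeR adjusted p = 0.00424), and the difference of -1.58 was not called (standard error 0.49, adjusted p = 0.116). evm.model.chr17.1319 stood in S at 60.3 ± 6.68 CPM and then at 63.8 ± 69 CPM (log2FC 0.08, edgeR adjusted p = 0.962). The SD of its S mature libraries exceeded their mean, so that mean does not stand for each library. W had 387 ± 64.8 CPM at the pea-size stage, but CPM of W and S were scaled separately. The log2 difference of -3.10 for evm.model.chr17.1319 was not called either (standard error 0.83, edgeR adjusted p = 0.0808). evm.model.chr10.612 went from 642 ± 94.8 to 158 ± 208 CPM in S (log2FC -2.02, edgeR adjusted p = 0.223), with a log2 difference of 0.68 (standard error 1.04, adjusted p = 0.85). A difference that misses the threshold does not show that the genotypes changed alike.

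Calls went opposite ways in the genotypes for 11 gene models. Of these, 8 of the 81 were up in W and down in S, and 3 of the 92 were the reverse. Over all tested gene models, 5.03% were called down in S and 4.57% up. In W the 8 ended at 37.2 to 1320 CPM at maturity, and they lie on chromosomes 2, 5, 8, 14, 16, 18 and 20. The most abundant was the gene model on chromosome 2 that reached 1320 ± 164 CPM in W (log2FC 1.29) and had a log2FC of -1.73 in S. None of the 8 was in the firmer set, and of the 3 only a gene model on chromosome 1 was. It fell in W from 22.9, 51.4 and 35.3 CPM to 0.439, 1.95 and 3.73 CPM (log2FC -4.07, standard error 0.64, edgeR adjusted p = 0.00424), and every mature value was far below every pea-size value. In S the same gene model was called up, with a log2FC of 9.46 (edgeR adjusted p = 0.00494). Its S levels are not given here, and, as with the largest W values above, this log2FC is not read as a size.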

How the data were processed

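RNA-seq libraries of W pedicels at 2 stages (n = 3 each) were analysed. Per the labels and the study's methods, the authors used Cutadapt for trimming, STAR with the 'Noble' genome for alignment, a step against PCR duplicates, and HTSeq for counting uniquely aligned reads. Deposited values are raw counts of reads per gene model, with 5 summary rows that were left out of library sizes and tests. They held 10.6% to 17.6% (no gene model), 1.51% to 1.72% (ambiguous) and 2.77% to 3.46% (not unique) of the reads. Authors' fold changes were not used.

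Gene models were kept by filterByExpr (minimum count 10, total 15) over all 12 libraries. edgeR 4.0.16 in R 4.3.3 fitted the 6 W libraries with TMM scaling (quasi-likelihood, robust), and p was adjusted over all 18439 gene models. Standard errors were taken as the log2FC over the root of F. The interaction was fitted on 12 libraries with 1 mean per group. Alternatives were DESeq2 1.42.0, other scalings, filters and thresholds, the replicate number as a block, and libraries left out. The tests were tried on simulated data. In each direction, the called gene model with the smallest adjusted p (more than 3 counts per stage, mean of at least 50 counts, stages apart) and the one with the highest mean CPM were named. Others were chosen for mention after their values were seen. Members and lists were chosen with earlier results of these data known. Nothing in the labels says that replicates came from separate vines, so p-values measure the spread between these samples. Limits of 0 take 3 counts. Figures used matplotlib 3.10.9.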

Additional observations from a re-analysis of the deposited data

How the results depend on the processing

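The number of calls moved with the processing. Their direction is no measure of stability, since the stages did not overlap for any of the 173. Gene models called up and down numbered 192 and 225 with DESeq2, 145 and 149 with no filter on low counts, 47 and 52 with filterByExpr over the 6 W libraries, 36 and 19 with all 12 libraries in 1 fit, 500 and 714 with an unadjusted p, and 36 and 36 at a log2FC of at least 2. With at least 10 counts in every library 57 and 61 were called. All 81 and all 92 were among DESeq2's calls, and 28 and 15 of them among those of the 12-library fit. With 1 library left out the counts ranged from 46 to 246 up and from 37 to 262 down, and leaving out both pea-size replicate 3 and mature replicate 1 gave 322 and 402. The interaction calls among the 173 ranged from 23 to 33 with 1 W library left out. DESeq2's size factors, library totals without TMM and no fold change threshold kept both counts within 1.5 times. The cause of these shifts was not tested. Deviations of same-numbered libraries had correlations of -0.045 to 0 across stages, and those of differently numbered libraries -0.019 to 0.036. These values show no pairing by replicate number, but they cannot decide whether the samples were paired. With the replicate block, 255 were called up and 198 down.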

Other observations

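Of the 100 gene models with the highest mean level in W pedicels, all at 810 CPM or more, 92 had a fitted log2FC below 1 in size, with a median size of 0.32. Over all tested gene models, 26.5% had a log2FC of 1 or more in size. By edgeR 3 of the 100 were called up and 1 down, where 0.439% and 0.499% of all tested were. Among the 2334 gene models at 100 CPM and over, 1.29% were called up and 1.46% down. The median standard error of the log2FC was 0.27 in that class, 1.32 at 1 to 10 CPM and 2.31 under 1 CPM. Shares over all levels are therefore not read as a sign that abundant gene models are steadier. The 10 most abundant of each library took 5.08% to 9.05% of its gene counts.

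The spread between mature replicates depended on 1 library. The biological coefficient of variation estimated by edgeR over the 18439 gene models was 69.1% for pea-size and 61.8% for mature libraries. The difference between the stages was not tested, and its direction turned with the library left out. Without mature replicate 1 the latter was 37.6%, and without mature replicate 2 or 3 it was 72.4% and 69.5%. Without pea-size replicate 1, 2 or 3 the former was 73.5%, 60.5% and 67.8%. Over the gene models with at least 10 counts in every library, the values were 42.6% and 34.5%.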
